A study of Mus musculus with 32 samples.

Results

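The 38 genes described here encode the machinery that copies DNA in S phase. They were chosen by symbol for that function, and all 38 were found among the 23420 genes of the count table of mouse spinal cord RNA and were expressed well enough to be tested (16314 genes were tested in all). All mice were of strain C57BL/6J and 8 to 12 weeks old, and RNA was taken from the snap-frozen segment of cord around the lesion. Sham-operated cords without injury were collected at 3 and 35 days (n = 3 each). Cords with a spinal cord injury (SCI) received a control treatment and were collected at 3, 14 and 35 days (n = 3, 3 and 4), here called injured control. Others received Gsx1 after the injury and were collected at 3, 14 and 35 days (n = 3, 3 and 4), and others received Nkx6.1 and were collected at 3 and 35 days (n = 3 each). Both factors belong to the homeobox family and act in the embryonic cord. The sham groups name no control treatment, so an effect of the injury and one of the control treatment cannot be told apart. The labels used here do not say how the factors were delivered, how the injury was made or whether replicates are separate animals, and p-values measure the spread among these 32 libraries.

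Before S phase, the origin recognition complex marks the sites where copying can start, and Cdc6 and Cdt1 load the ring-shaped Mcm2 to Mcm7 helicase there in an inactive form. Mcm10, Cdc45 and the GINS complex switch the helicase on, primase and the replicative polymerases then synthesise DNA on the clamp Pcna, and ribonucleotide reductase, thymidylate synthase and thymidine kinase provide the nucleotides. Transcription of most of these genes is driven by E2F factors once cyclin-dependent kinases inactivate the retinoblastoma protein, so their messenger RNAs are common measures of dividing cells. In the adult cord few cells divide, and after an injury microglia, astrocytes, oligodendrocyte precursors, vascular cells and invading leukocytes are all known to proliferate.

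The libraries held 10.8 to 19.5 M counts (median 14.6 M), and Pearson's r of log2 CPM (reads per gene relative to library size) between libraries of a group ranged from 0.948 to 0.994. Gsx1 had 1 to 4 counts in the Gsx1 libraries at 3 days, 3 to 10 at 14 days and 3 to 6 at 35 days, against 0 to 9 in the libraries of the other groups. Nkx6-1 stood at 3.62, 6.11 and 5.71 CPM in the Nkx6.1 libraries at 3 days, all below the 7.55, 8.98 and 7.00 CPM of the injured control. The group names therefore rest on the labels, and whether the counted gene models cover the delivered sequences was not tested. Markers of neurons, oligodendrocytes and astrocytes were abundant in every group, as the labelled tissue requires. A mixture of reads from both sexes, with Xist over 100 CPM and Ddx3y over 10 CPM, was seen in replicate 1 of the sham group at 3 days and replicate 4 of the injured control at 35 days. Without these libraries, 29 of the 38 genes were called higher at 3 days in place of the 32 given below. Xist was over 100 CPM in 7 libraries in all. At 3 days these were replicates 1 and 2 of sham and 1 of the injured control. At 35 days they were replicate 3 of sham, 1 and 4 of the injured control and 2 of the Nkx6.1 group. Sex as read from Xist was thus uneven over the groups compared and partly mixed with treatment and time. With Xist as a covariate, 6 of 93 member calls were lost. Reads of an overlapping gene on the opposite strand cannot be told apart where counting ignored strand, and the strand setting is not given in the sources at hand. This makes the values of Orc1, Orc6, Mcm7, Cdc45, Gins2, Pole, Rfc2, Rfc4, Rfc5, Fen1, Lig1, Tk1, Chaf1a and Ccne2 uncertain.

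Promoter sequences are shown for 6 of the members with the smallest p at 3 days in their role group, those whose RefSeq promoter window (build GRCm38.p6, 250 bases before to 50 bases after the start site) holds a canonical E2F motif, since E2F sites are the known entry point of cell cycle control for these genes. The letters searched were TTTGGCGC, TTTCCCGC, TTTGCCGC and TTTCGCGC on both strands, and matches are in capitals, with the sequence read 5′ to 3′ in the direction of transcription. The windows lie at chr8:122567765-122568064 (plus strand) for Cdt1, chr11:98907901-98908200 (plus strand) for Cdc6, chr8:75109259-75109558 (plus strand) for Mcm5, chr1:128359656-128359955 (minus strand) for Mcm6, chr7:13278576-13278875 (plus strand) for Lig1 and chr17:56304063-56304362 (plus strand) for Uhrf1. The windows of Cdc6, Lig1 and Uhrf1 lie inside the gene as annotated by GENCODE, before a later start site, and the other windows of Lig1 and Uhrf1 hold no match. Mcm10, at chr2:5012742-5013041 (minus strand), is shown as a window with no whole match, but its last bases are the first 7 letters of TTTGGCGC, so that this absence rests on where the window stops. Other members with a match, Mcm3 and Orc1 among them, are not shown.
Cdt1: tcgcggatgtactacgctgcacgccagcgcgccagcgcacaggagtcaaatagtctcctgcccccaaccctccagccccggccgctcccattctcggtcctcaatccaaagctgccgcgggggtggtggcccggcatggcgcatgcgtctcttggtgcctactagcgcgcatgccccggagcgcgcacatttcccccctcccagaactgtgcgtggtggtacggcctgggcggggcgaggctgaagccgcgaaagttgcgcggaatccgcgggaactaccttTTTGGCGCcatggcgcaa
Cdc6: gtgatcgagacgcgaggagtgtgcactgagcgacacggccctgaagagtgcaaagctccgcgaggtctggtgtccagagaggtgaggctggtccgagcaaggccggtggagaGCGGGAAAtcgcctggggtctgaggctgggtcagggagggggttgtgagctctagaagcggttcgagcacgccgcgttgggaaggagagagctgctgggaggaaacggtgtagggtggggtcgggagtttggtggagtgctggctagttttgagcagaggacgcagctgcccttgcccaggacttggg
Mcm5: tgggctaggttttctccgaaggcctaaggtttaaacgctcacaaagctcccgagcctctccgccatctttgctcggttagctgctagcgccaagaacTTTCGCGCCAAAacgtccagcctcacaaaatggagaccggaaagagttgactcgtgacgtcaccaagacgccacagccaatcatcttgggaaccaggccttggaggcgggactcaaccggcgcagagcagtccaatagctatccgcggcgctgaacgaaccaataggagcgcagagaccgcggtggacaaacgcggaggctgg
Mcm6: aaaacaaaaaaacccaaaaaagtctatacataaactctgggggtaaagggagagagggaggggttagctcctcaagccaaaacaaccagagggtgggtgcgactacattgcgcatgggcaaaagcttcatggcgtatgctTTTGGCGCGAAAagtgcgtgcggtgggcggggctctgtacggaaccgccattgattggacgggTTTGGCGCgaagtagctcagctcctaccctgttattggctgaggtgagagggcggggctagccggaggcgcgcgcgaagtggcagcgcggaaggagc
Lig1: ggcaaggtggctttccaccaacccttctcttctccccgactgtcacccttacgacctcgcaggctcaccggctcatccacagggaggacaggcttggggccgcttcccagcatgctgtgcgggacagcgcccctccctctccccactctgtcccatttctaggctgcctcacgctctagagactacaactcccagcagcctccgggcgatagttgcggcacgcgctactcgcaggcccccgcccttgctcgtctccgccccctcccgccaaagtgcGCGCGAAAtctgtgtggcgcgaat
Uhrf1: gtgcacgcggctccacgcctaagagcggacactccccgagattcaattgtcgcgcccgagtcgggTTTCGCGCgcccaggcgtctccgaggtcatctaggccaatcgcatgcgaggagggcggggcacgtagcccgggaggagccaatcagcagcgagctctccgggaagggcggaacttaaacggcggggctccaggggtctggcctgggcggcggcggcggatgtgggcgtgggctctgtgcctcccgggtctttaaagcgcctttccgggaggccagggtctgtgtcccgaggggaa
Mcm10: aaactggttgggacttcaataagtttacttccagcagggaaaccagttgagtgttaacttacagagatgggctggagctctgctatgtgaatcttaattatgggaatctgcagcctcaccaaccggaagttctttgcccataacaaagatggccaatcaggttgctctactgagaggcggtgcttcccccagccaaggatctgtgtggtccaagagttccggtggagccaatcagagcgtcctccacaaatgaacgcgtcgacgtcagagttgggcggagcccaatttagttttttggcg

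In Mcm6 and Mcm5 matches on opposite strands overlap and form 1 longer run of capitals, and Mcm6 holds another match nearer to the start site. The single matches of Cdt1 and Lig1 lie after the start site, and those of Cdc6 and Uhrf1 lie over 100 bases before it. A match of letters is a description of the sequence and does not show that a factor binds there.

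At 3 days after the injury, DNA replication genes rose as a body. In injured control against sham, 32 of the 38 were called higher (edgeR quasi-likelihood test, Benjamini-Hochberg adjusted p under 0.05) and 0 were called lower, while 19.4% of all genes tested were called higher. The median log2 fold change of the 38 was 1.16, against 0.01 over all genes, and 23 of the 32 rose at least 2-fold. Every injured control library lay above every sham library for 34 of the 38 genes, and for 4563 of the 16314 genes tested. Summed over the 38 genes, sham had 341 ± 4.29 CPM and the injured control 746 ± 76.2 CPM (SD, n = 3 each). In whole tissue, more cells in S phase and more RNA per cell cannot be told apart.

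**Figure D1:**
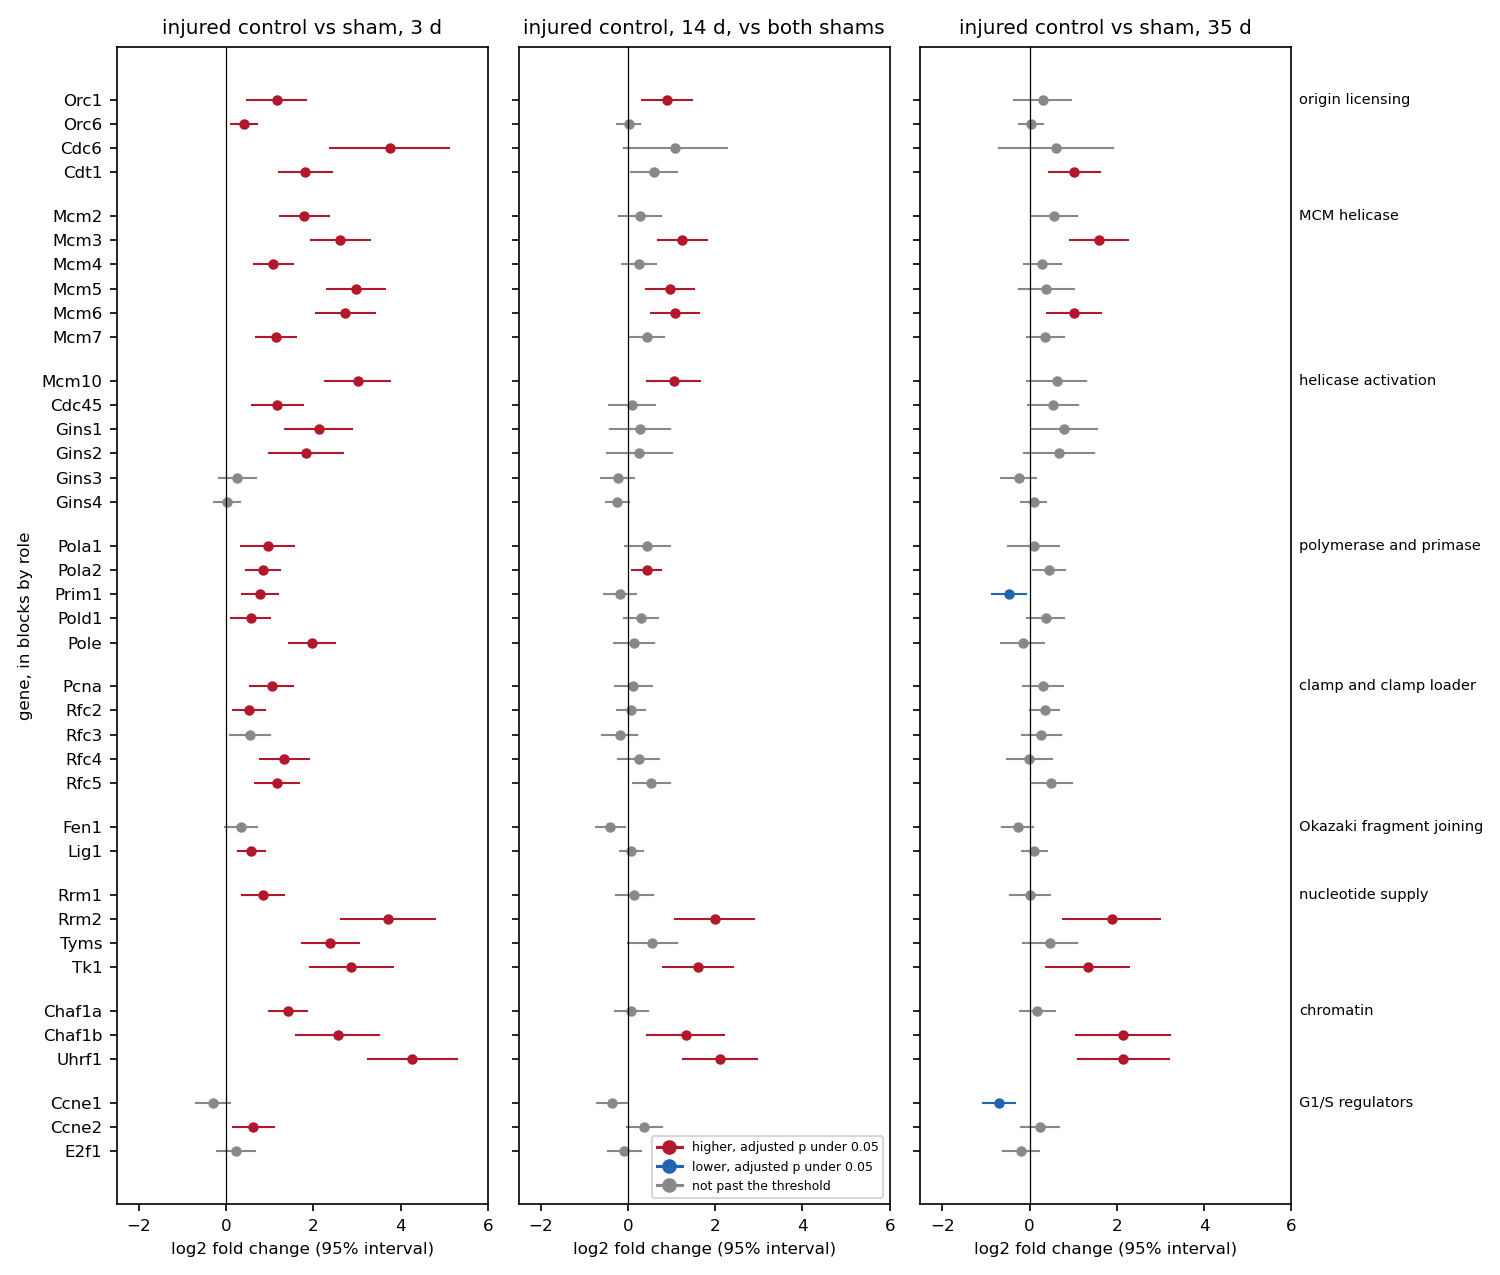
Log2 fold change (x axis) of the 38 genes (y axis, in blocks by role) in injured control against sham at 3 days, at 14 days against the mean of both sham groups, and at 35 days. Points are edgeR estimates and lines 95% intervals, red or blue where the adjusted p is under 0.05. At 3 days 32 genes are red, at 14 days 10, and at 35 days 7 are red and 2 are blue.

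All 4 genes of origin licensing rose. Cdc6, the ATPase that helps to load the helicase, stood at 0.355, 0.476 and 0.342 CPM in the sham libraries at 3 days and 6.87, 2.56 and 6.54 CPM in the injured control (log2 fold change 3.74 ± 0.67 (SE), adjusted p = 0.000125). Cdt1, its partner in loading, stood at 3.84, 3.49 and 2.46 CPM in sham and 15.1, 7.49 and 11.9 CPM in the injured control (log2 fold change 1.82 ± 0.30 (SE), adjusted p = 4.77e-05). In both genes all injured libraries exceeded all sham libraries, and replicate 2 was the lowest of the injured control. It was the lowest in 31 of the 38 genes, with the number over all genes not given here. Orc1, the largest subunit of the origin recognition complex, rose 2.23-fold. Orc6 went from 11.3 ± 0.756 to 15.0 ± 0.519 CPM (SD, n = 3 each), the smallest rise among the genes called (log2 fold change 0.40 ± 0.15). Orc1 was not called without replicate 3 of the sham group, and Orc6 in only 1 of 6 fits that each left out 1 library.

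All 6 subunits of the MCM helicase rose, with a median log2 fold change of 2.20. Mcm5 stood at 4.40, 3.57 and 2.53 CPM in sham and 30.5, 20.9 and 31.4 CPM in the injured control (log2 fold change 2.98 ± 0.33 (SE), adjusted p = 4.60e-07). Mcm6 stood at 5.54, 4.44 and 6.90 CPM in sham and 47.7, 31.6 and 33.3 CPM in the injured control (log2 fold change 2.73 ± 0.33 (SE), adjusted p = 1.29e-06). No library of one group reached the other in either gene. The subunits differed in size of rise: Mcm5, Mcm6 and Mcm3 rose 7.87-, 6.64- and 6.12-fold, Mcm2 rose 3.46-fold, and Mcm7 and Mcm4 rose 2.21- and 2.12-fold. Levels per kilobase were taken over the joined exons of all annotated transcripts of a gene. This length can exceed that of the RNA present, so comparisons between genes depend on it. On this scale the 6 subunits ranged in sham from 0.877 (Mcm5) to 4.33 (Mcm4) CPM per kb, a ratio of 4.94. In the injured control at 3 days they ranged from 3.97 (Mcm2) to 9.16 (Mcm4) CPM per kb, a ratio of 2.31. The 6 proteins form a ring with 1 copy of each. By these lengths, their RNA levels were closer to each other at 3 days after the injury than in sham at 3 days, where Mcm4 and Mcm7 were already high. In sham at 35 days the ratio was 3.77, with Mcm2 the lowest, so the ratio also differed between the sham groups.

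Of the 6 genes that activate the helicase, 4 rose. Mcm10, a scaffold for the active helicase, stood at 1.14, 0.714 and 0.957 CPM in sham and 8.91, 6.05 and 7.93 CPM in the injured control (log2 fold change 3.01 ± 0.36 (SE), adjusted p = 1.03e-06). Gins1, a GINS subunit, stood at 0.852, 1.27 and 0.684 CPM in sham and 4.83, 2.31 and 5.08 CPM in the injured control (log2 fold change 2.12 ± 0.37 (SE), adjusted p = 0.000118). The groups did not overlap in either gene. Gins2 and Cdc45 rose 3.56- and 2.25-fold. The other two GINS subunits were not called: Gins3 stood at 4.36 ± 0.524 CPM in sham and 5.20 ± 0.422 CPM in the injured control (SD, n = 3 each, adjusted p = 0.36). Gins4 stood at 20.7, 22.3 and 23.7 CPM in sham and 22.1, 23.8 and 21.7 CPM in the injured control (log2 fold change 0.02 ± 0.15, 95% interval -0.28 to 0.32), and the libraries of the groups were interspersed. Per kilobase of joined exons, Gins4 had the highest level of all 38 genes in sham, 16.5 ± 1.10 CPM per kb (SD, n = 3), against 0.617 ± 0.199 for Gins1, 0.504 ± 0.269 for Gins2 and 1.61 ± 0.194 for Gins3. The 4 subunits of this complex, which also holds 1 copy of each, thus differed more in RNA level than the MCM subunits by these lengths, before and after the injury.

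All 5 genes of the polymerases and primase rose, with a median log2 fold change of 0.85. Pole, the catalytic subunit of the leading strand polymerase, stood at 2.98, 2.78 and 3.35 CPM in sham and 13.3, 10.3 and 12.1 CPM in the injured control (log2 fold change 1.96 ± 0.26 (SE), adjusted p = 3.61e-06). Pola2, the accessory subunit of the polymerase that starts each strand, stood at 8.74, 8.25 and 6.36 CPM in sham and 13.9, 14.4 and 13.7 CPM in the injured control (log2 fold change 0.85 ± 0.19 (SE), adjusted p = 0.00133). All injured libraries were above all sham libraries in both. Pola1, the catalytic partner of Pola2, rose 1.93-fold, and Prim1, the primase catalytic subunit, rose 1.72-fold. Pold1, the catalytic subunit of the lagging strand polymerase, was called at the limit of the threshold (log2 fold change 0.56 ± 0.22 (SE), adjusted p = 0.0461), and replicate 2 of the injured control (12.1 CPM) lay within the sham range of 10.3 to 13.4 CPM. Pold1 kept its call in 1 of 6 fits that each left out 1 library, and Pola1 in 4 of 6.

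Of the sliding clamp and its loader, 4 of 5 genes rose. Pcna, the clamp and the most abundant of the 38 genes by CPM, went from 34.4 ± 5.10 to 70.7 ± 5.20 CPM (SD, n = 3 each, 2.06-fold). Rfc4 stood at 2.70, 3.49 and 1.98 CPM in sham and 6.65, 4.87 and 9.08 CPM in the injured control (log2 fold change 1.33 ± 0.27 (SE), adjusted p = 0.000537). Rfc5 stood at 3.20, 3.57 and 5.13 CPM in sham and 8.83, 8.48 and 9.31 CPM in the injured control (log2 fold change 1.16 ± 0.25 (SE), adjusted p = 0.000848). Rfc4 varied more among the injured libraries than Rfc5, but the groups were separate in both. Rfc2 rose 1.44-fold, a call kept in 3 of 6 fits that each left out 1 library, and Rfc3 missed the threshold with a log2 fold change of 0.54 ± 0.22 (adjusted p = 0.0605) although its groups did not overlap. Of the genes that join Okazaki fragments, Lig1, the replicative ligase, stood at 27.5, 31.6 and 28.1 CPM in sham and 41.8, 38.4 and 49.7 CPM in the injured control (log2 fold change 0.57 ± 0.15 (SE), adjusted p = 0.00429), with separate groups. Fen1, the flap nuclease, was not called, at 15.7 ± 0.407 and 19.7 ± 1.49 CPM (SD, n = 3 each, adjusted p = 0.153).

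The 4 genes of nucleotide supply rose with the largest median of the role groups, a log2 fold change of 2.63. Rrm2, the subunit of ribonucleotide reductase that limits the enzyme in cycling cells, stood at 2.91, 1.19 and 3.28 CPM in sham and 34.1, 28.8 and 34.7 CPM in the injured control (log2 fold change 3.71 ± 0.52 (SE), adjusted p = 8.42e-06). Tyms, thymidylate synthase, stood at 2.63, 1.51 and 2.12 CPM in sham and 12.2, 8.48 and 12.2 CPM in the injured control (log2 fold change 2.38 ± 0.32 (SE), adjusted p = 4.21e-06). The groups were far apart in both genes. A Tyms pseudogene, Tyms-ps, had 0 to 7 counts in the 32 libraries, so few reads were assigned to it. Tk1, thymidine kinase, rose 7.32-fold, and Rrm1, the other subunit of the reductase, rose 1.79-fold from a level that was already 30.4 ± 2.88 CPM (SD, n = 3) in sham. Per kilobase, Rrm1 stood at 2.76 ± 0.261 and Rrm2 at 0.888 ± 0.403 CPM per kb (SD, n = 3) in sham. In the injured control the values were 4.95 ± 0.264 and 11.7 ± 1.16 CPM per kb (SD, n = 3). The joined exons of all annotated transcripts measure 11012 bases for Rrm1 and 2771 for Rrm2, and the order of the genes depends on these lengths. By CPM, Rrm1 was above Rrm2 in both groups, at 54.5 against 32.5 CPM in the injured control.

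The 3 genes that restore chromatin behind the fork all rose. Uhrf1, which recognises hemimethylated DNA and brings in the maintenance methyltransferase, stood at 0.639, 2.22 and 1.37 CPM in sham and 27.9, 22.3 and 30.5 CPM in the injured control (log2 fold change 4.26 ± 0.50 (SE), adjusted p = 9.49e-07). Its 19.2-fold difference was the largest of the 38 genes, ahead of Cdc6 (13.4-fold) and Rrm2 (13.0-fold). Chaf1b and Chaf1a, subunits of the chromatin assembly factor that deposits histones on new DNA, rose 5.87- and 2.69-fold.

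The regulators of the G1 to S transition moved least, and 1 of 3 was called. Ccne2, a cyclin E that activates Cdk2, stood at 8.31, 8.09 and 7.93 CPM in sham and 12.7, 11.6 and 13.2 CPM in the injured control (log2 fold change 0.62 ± 0.23 (SE), adjusted p = 0.0349). Its groups were separate, but the call was kept in only 1 of 6 fits that each left out 1 library. Ccne1, the other cyclin E, stood at 16.1, 15.8 and 17.8 CPM in sham and 15.2, 10.6 and 14.5 CPM in the injured control (log2 fold change -0.30 ± 0.19 (SE), adjusted p = 0.221). It was the only member with a negative estimate at 3 days, with all injured libraries below all sham libraries. E2f1 itself stood at 10.9 ± 0.280 and 12.8 ± 0.928 CPM (SD, n = 3 each, adjusted p = 0.43).

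Levels in sham and sizes of the rise are set side by side here as a description, since both use the sham libraries and the genes were picked by their values. The ranking per kilobase depends on the exon lengths used. The 6 genes lowest in sham per kilobase (Cdc6, Mcm10, Chaf1b, Pole, Tk1 and Uhrf1, 0.0748 to 0.331 CPM per kb) rose 3.90- to 19.2-fold. The 6 highest (Gins4, Pcna, Lig1, Fen1, Ccne1 and Orc6, 4.59 to 16.5 CPM per kb) had estimates of 0.810- to 2.06-fold. The plot of single libraries shows both kinds.

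**Figure D2:**
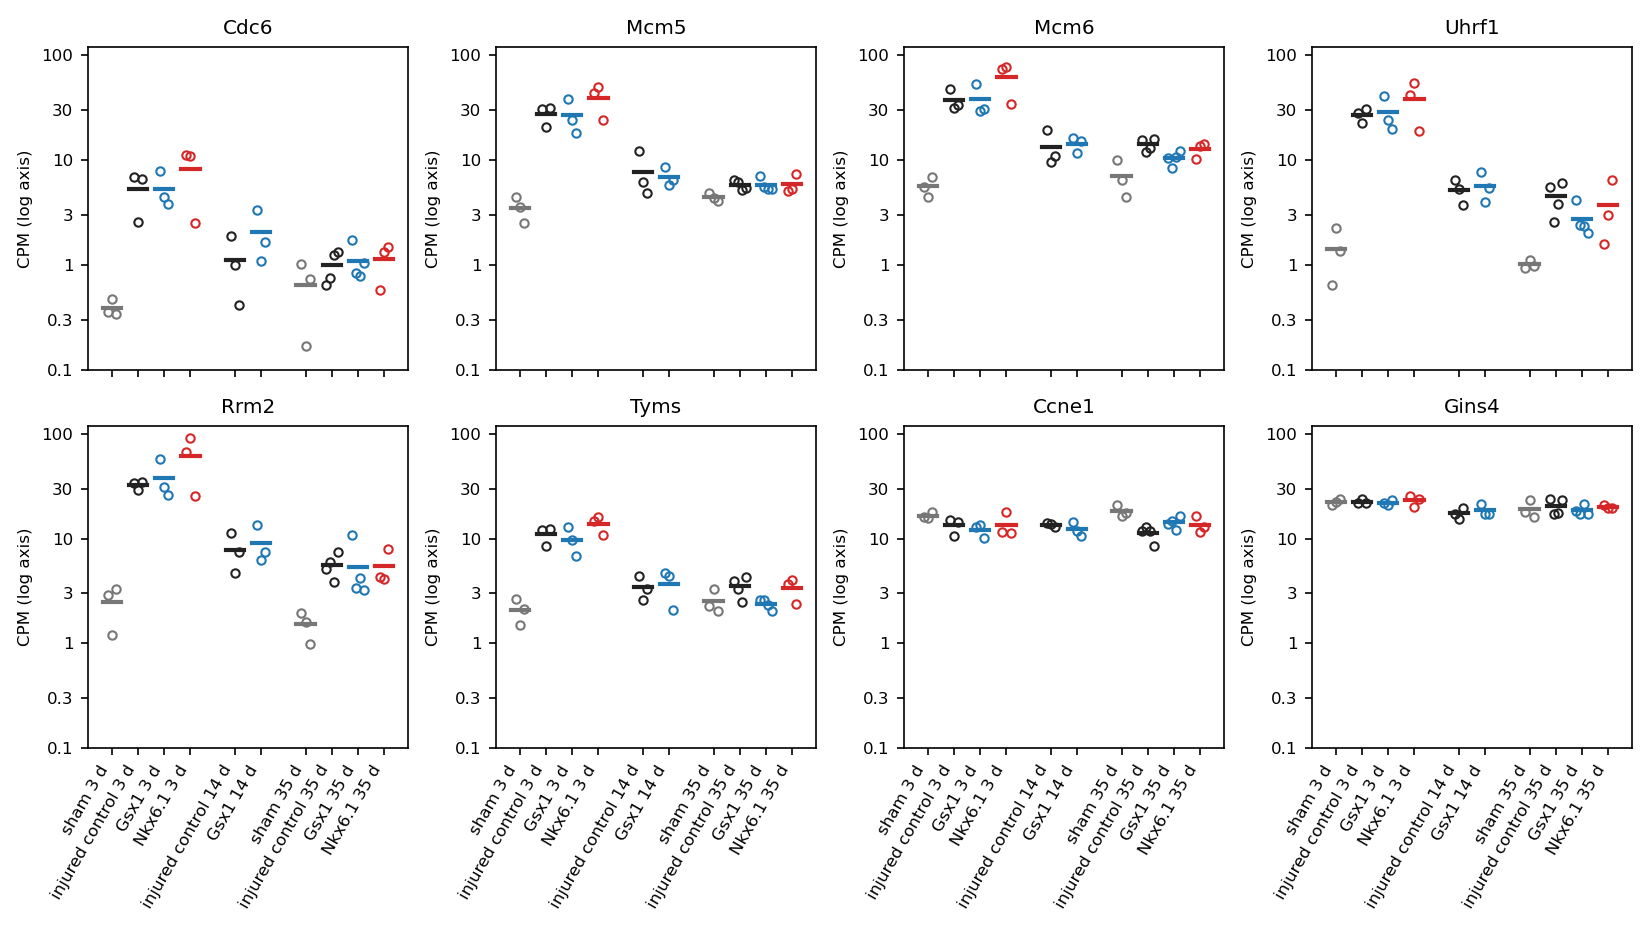
CPM on a log axis (y) of 8 of the genes in each of the 32 libraries (circles) by group and time (x), with the group mean as a bar. Cdc6, Mcm5, Mcm6, Uhrf1, Rrm2 and Tyms are high in all 3-day injured groups and low at 14 and 35 days, while Ccne1 and Gins4 stay within 8.48 to 25.3 CPM throughout.

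Genes of the same pathway outside the 38 were less uniform. Of 46 other genes of the replication machinery, 20 were called higher and 1 lower at 3 days (median log2 fold change 0.47). Those with the smallest p were Dna2, a nuclease and helicase for Okazaki fragments (log2 fold change 1.75 ± 0.26), Dbf4, the activator of the Cdc7 kinase (2.03 ± 0.33), Asf1b, a histone chaperone (2.46 ± 0.42), and Clspn, a checkpoint adaptor at the fork (3.69 ± 0.63, SE throughout). Orc3 fell (log2 fold change -0.29 ± 0.08, SE, adjusted p = 0.0092), and Orc2, Orc4 and Orc5 were not called, with log2 fold changes of -0.02 ± 0.09, -0.18 ± 0.08 and -0.13 ± 0.11 (SE). Of the 6 subunits of the origin recognition complex, then, Orc1 and Orc6 were called higher and Orc3 lower. Among 25 genes of E2F factors, pocket proteins and G1 cyclins with their kinases and inhibitors, 15 were called higher, among them Ccna2, Cdkn2c, Cdk2 and Cdk4 (3.65-, 9.33-, 3.71- and 2.22-fold). The 2 called lower were E2f6, a repressor (-0.50 ± 0.12), and Cdkn1c, like Cdkn2c an inhibitor of cyclin-dependent kinases (-0.91 ± 0.30, log2 fold change and SE). All 25 genes of mitosis were called higher, with a median log2 fold change of 3.45 and the smallest p in Tpx2, Cenpf, Ccnb1 and Kif23 (log2 fold changes 3.55 ± 0.36, 4.52 ± 0.48, 5.48 ± 0.61 and 4.00 ± 0.45, SE).

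Markers of other cells changed in the same libraries. All 12 macrophage and phagocyte markers were called higher at 3 days, and their summed level went from 177 to 212 CPM in sham to 4020 to 7013 CPM in the injured control. None of the 12 was at 0 in the sham libraries, and the lowest, Ms4a7, had 1 to 4 counts per library. Of 10 microglial markers 6 were called higher (sums of 370 to 429 CPM in sham and 1079 to 1190 CPM in the injured control), of 9 endothelial markers 8, and of 7 markers of oligodendrocyte precursors 3. All 8 neuronal markers were called lower, with sums of 8858 to 9539 CPM in sham and 3819 to 5492 CPM in the injured control. Of 7 skeletal muscle markers 5 were called higher, with the highest sums in replicate 3 of the injured control (299 CPM) and replicate 2 of the Nkx6.1 group (534 CPM). The part of each cell type in the rise of the replication genes was not tested.

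The rise was short. At 14 days the 38 genes summed to 406 ± 54.5 CPM (SD, n = 3) in the injured control, and at 35 days to 425 ± 29.5 CPM (SD, n = 4), against 359 ± 26.5 CPM (SD, n = 3) in sham at 35 days. Taking the difference from sham at 3 days as the whole, 13.8% of it was left at 14 days and 16.4% at 35 days, where the 14-day value is set against the mean of both sham groups because no sham group at 14 days was analysed here. Without replicate 1 of the injured control at 14 days, the library with the highest sum (468, 367 and 382 CPM), the share at 14 days was 6.05%. Without replicate 2 of that group the share was 18.5%. Between 3 and 14 days 19 of the 38 genes fell and 0 rose, while 2.42% of all genes were called lower, and the median log2 fold change was -0.81 (0.01 over all genes). In 37 of the 38 the mean at 14 days was below that at 3 days, Ccne1 being the exception. Between 3 and 35 days 23 fell, with 5.92% of all genes called lower. From 14 to 35 days 0 of the 38 changed, with 1.36% of all genes called in either direction. At an unadjusted p under 0.05, 2 of the 38 differed between 14 and 35 days, and DESeq2 called 0.

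The genes called lower at 14 than at 3 days covered most roles. They included 5 of 6 MCM genes, 4 of 6 genes of helicase activation and all 3 chromatin genes, but 0 of 5 clamp and loader genes, whose log2 fold changes ranged from -0.88 to -0.37. Uhrf1 went from 27.9, 22.3 and 30.5 CPM at 3 days to 6.43, 5.33 and 3.71 CPM at 14 days (log2 fold change -2.39 ± 0.43 (SE), adjusted p = 0.00377). Cdc6 went from 6.87, 2.56 and 6.54 to 1.89, 1.00 and 0.412 CPM (log2 fold change -2.29 ± 0.59 (SE), adjusted p = 0.0316). Rrm2 went from 34.1, 28.8 and 34.7 to 11.3, 4.67 and 7.42 CPM (log2 fold change -2.07 ± 0.47 (SE), adjusted p = 0.0147). In each the 3-day libraries were all above the 14-day libraries, and replicate 1 was the highest at 14 days. The count of 19 was 10 without replicate 1 at 3 days and 8 without either replicate 2 or replicate 3 at 14 days, so each of these libraries bears on it.

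For the 32 genes that had risen at 3 days, the share of the rise left at 14 days had a median of 15.6% (range -20.8% to 71.5%) and was under 25% in 24. The median was 10.4% without replicate 1 at 14 days and 20.8% without replicate 3 at that time. The highest share was that of Orc1, which stood at 2.57, 2.20 and 1.99 CPM at 14 days against 2.19, 3.24 and 2.54 CPM at 3 days. At 35 days the median was 19.4% (range -51.7% to 69.6%), and 22 of the 32 were under 25%. Summed by role, 19.7% of the rise of the MCM genes was left at 14 days and 20.4% at 35 days, and 17.7% and 9.65% of that of nucleotide supply. Without replicate 1 at 14 days the shares at 14 days were 12.1% for the MCM genes and 10.2% for nucleotide supply. Without replicate 2 at that time they were 23.7% and 24.1%. Clamp and loader genes had 11.1% left at 14 days (4.62% without replicate 1 and 19.0% without replicate 2 at that time) and 36.1% at 35 days. The sum for helicase activation was below sham at 14 days (-10.1%, range -15.5% to -3.50% when 1 library was left out, the ends without replicates 3 and 2 of the sham group at 35 days) and 21.7% of its rise was left at 35 days (10.9% and 34.9% without the same libraries). The value below sham came from Gins3 and Gins4, which were not called at 3 days. The genes of this role that had risen were above sham at 14 days, with 18.9% (Mcm10), 7.76% (Gins2), 6.42% (Gins1) and 5.00% (Cdc45) left. Okazaki fragment joining stood at -15% at 14 days (range -28.2% without replicate 1 to -6.04% without replicate 3 at that time) and -5.36% at 35 days (range -19.2% without replicate 1 to 7.57% without replicate 4 of the injured control). These negative sums came from Fen1, which was not called at 3 days. Lig1, which had risen, had 10.9% left at 14 days and 16.3% at 35 days. The mitosis genes kept 20.0% and 13.0%, the first being 12.7% without replicate 1 and 23.9% without replicate 2 at 14 days. Macrophage markers kept 37.3% at 14 days and 48.3% at 35 days, and microglial markers 76.3% and 139%, and 12 of 12 macrophage and 6 and 7 of 10 microglial markers were still called higher at these times. With 1 library left out, the macrophage shares ranged from 28.4% to 46.2% at 14 days and 40.7% to 59.8% at 35 days. The microglial shares ranged from 67.7% to 86.4% and from 120% to 156%. The endothelial markers kept 35.2% at 14 days and 56.4% at 35 days (31.6% to 42.2% and 41.6% to 67.6% when 1 library was left out). Their sums in sham were 341, 307 and 309 CPM at 3 days and 208, 210 and 177 CPM at 35 days. In the injured control they were 363, 334 and 349 CPM at 14 days and 300, 315, 300 and 455 CPM at 35 days. The endothelial shares thus rest in part on the lower sham level at 35 days. How these cells share in the levels of the replication genes was not tested.

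**Figure D3:**
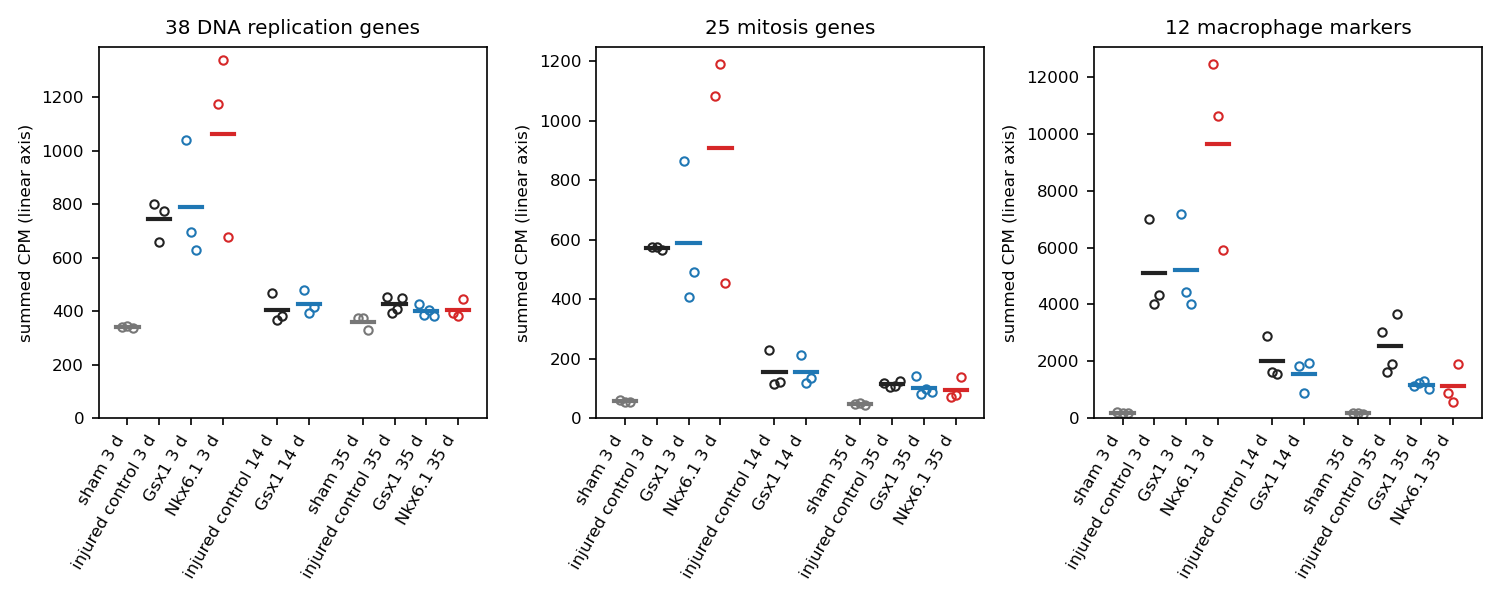
Summed CPM (y, linear axis from 0) of the 38 DNA replication genes, of 25 mitosis genes and of 12 macrophage markers in each of the 32 libraries (circles) by group and time (x), with group means as bars. The replication and mitosis sums are highest in the injured groups at 3 days. In the injured control the replication sum is 1.16 times sham at 14 days and 1.18 times at 35 days, and the mitosis sum 2.97 and 2.42 times.

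Some of the 38 were still called higher at 14 or 35 days, in numbers not read as particular to the list. At 14 days 10 of the 38 were called higher than the mean of both sham groups, while 17.1% of all genes were called higher. At 35 days 7 were called higher than sham, with 21.3% of all genes called higher, and 2 were called lower, with 15.5% of all genes called lower. Both shares at 35 days are below that background. Mcm3, Mcm6, Rrm2, Tk1, Chaf1b and Uhrf1 were called higher at all 3 times, and Cdt1 at 3 and 35 days. Orc1, Mcm5, Mcm10 and Pola2 were called higher at 3 and 14 days but not at 35. The count at 14 days was 4 without replicate 1 of the injured control.

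Mcm3, an MCM subunit, stood at 3.99, 4.83 and 4.02 CPM in sham at 35 days and 14.3, 10.3, 11.5 and 15.5 CPM in the injured control (log2 fold change 1.59 ± 0.32 (SE), adjusted p = 0.000558). Uhrf1 stood at 0.939, 1.10 and 0.984 CPM in sham and 5.49, 2.56, 3.84 and 6.1 CPM in the injured control (log2 fold change 2.14 ± 0.51 (SE), adjusted p = 0.00226). Chaf1b stood at 0.157, 0.509 and 0.328 CPM in sham and 1.67, 0.742, 1.25 and 2.23 CPM in the injured control (log2 fold change 2.13 ± 0.52 (SE), adjusted p = 0.0028). In these 3 genes the groups were separate, and the injured libraries stood well below their levels at 3 days. Cdt1 rose 2.04-fold over sham, Rrm2 3.68-fold, Mcm6 2.02-fold and Tk1 2.51-fold. The 7 genes called higher became 4 without replicate 3 of the sham group at 35 days.

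The 2 genes below sham at 35 days were a cyclin and a primase subunit. Ccne1 stood at 21.1, 16.3 and 17.5 CPM in sham and 11.7, 12.9, 12.0 and 8.48 CPM in the injured control (log2 fold change -0.70 ± 0.18 (SE), adjusted p = 0.00402). Prim1 stood at 9.39, 9.50 and 9.84 CPM in sham and 6.21, 6.34, 6.71 and 8.33 CPM in the injured control (log2 fold change -0.47 ± 0.19 (SE), adjusted p = 0.0497). All injured libraries were below all sham libraries in both. Prim1 was thus called higher at 3 days and lower at 35 days, the only one of the 38 with calls in both directions, and its p at 35 days lies at the threshold. Ccne1 kept its call under all alternatives run, and Prim1 lost it in 6 of 7 fits that each left out 1 library and in 4 of 7 other settings, the replicate block among them (log2 fold change -0.51). Of the 46 other machinery genes 4 were called higher at 35 days (Dbf4, Mcmbp, Dna2 and Samhd1) and 2 lower (Orc4 and Orc5), and of the 25 mitosis genes 19 were called higher.

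In sham cords no difference between 35 and 3 days was called for the 38 genes (0 of 38), with 0.00613% of all genes called in either direction. At an unadjusted p under 0.05, 4 were higher and 1 was lower, and DESeq2 called 0. The sums were 340, 346 and 337 CPM at 3 days and 375, 373 and 328 CPM at 35 days, and the ranges of the groups overlapped.

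Cords that received Gsx1 showed a rise at 3 days and a fall by 14 days as well. Against sham, 34 of the 38 were called higher at 3 days (20.3% of all genes called higher) and 2 at 35 days (8.62%), Rrm2 and Mcm3. The count of 2 became 0 when any 1 of the sham libraries at 35 days or replicate 1 of the Gsx1 group was left out, and 1 without its replicate 2 or 3. Between 3 and 14 days 21 fell (4.79% of all genes called lower), and from 14 to 35 days 0 changed (0.00613% in either direction, 3 of the 38 lower at an unadjusted p under 0.05, 0 called by DESeq2). Against the injured control, 0 of the 38 were called at 3, 14 or 35 days, where 0% of all genes were called at each time. At an unadjusted p under 0.05 the numbers were 0, 0 and 2, and DESeq2 called 0 each time. The median log2 fold change of the 38 was 0.06 at 3 days (range -0.28 to 0.45), 0.12 at 14 days (range -0.66 to 0.91) and -0.11 at 35 days (range -0.70 to 0.35).

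The 3-day Gsx1 libraries were uneven. Their sums over the 38 genes were 1042, 695 and 629 CPM, against 802, 659 and 776 CPM in the injured control. Replicate 1 was the highest Gsx1 library for 33 of the 38 genes and above all injured control libraries for 31. The matching numbers over all genes are not given here, so these counts are not read as particular to the 38. That library also had the highest mitosis sum (865 CPM, against 408 and 492) and macrophage sum (7172 CPM, against 4434 and 3999) of its group, and the part of these cells in its replication gene levels was not tested. Without it, the number of genes that fell between 3 and 14 days was 4, and without replicate 2 at 14 days it was 5.

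With Nkx6.1 the estimates at 3 days were higher than in the injured control, without any call. Against sham, 36 of the 38 were called higher at 3 days (27.9% of all genes called higher), all but Ccne1 and Gins4. Against the injured control, 0 of the 38 were called (0.337% of all genes called in either direction) and DESeq2 called 0, but all 38 log2 fold changes were positive, as were 8098 of those of the 16314 genes tested. Their median was 0.51 (range 0.01 to 0.91), and 15 had an unadjusted p under 0.05. The genes given next were chosen after their values were seen. The smallest adjusted p was that of Pole, which stood at 19.9, 27.5 and 13.5 CPM with Nkx6.1 and 13.3, 10.3 and 12.1 CPM in the injured control (log2 fold change 0.77 ± 0.24 (SE), adjusted p = 0.116). Cdc45, which joins the helicase at its activation, stood at 13.0, 12.3 and 8.08 CPM with Nkx6.1 and 5.81, 5.68 and 6.85 CPM in the injured control (log2 fold change 0.86 ± 0.27 (SE), adjusted p = 0.12). In both genes every Nkx6.1 library was above every injured control library, which held for 6 of the 38. The numbers of all genes with such a separation, or with an unadjusted p under 0.05, are not given here. Neither count is therefore read as particular to the 38. Rrm2 had the largest estimate and stood at 67.5, 90.5 and 25.7 CPM with Nkx6.1 (log2 fold change 0.91 ± 0.44 (SE), adjusted p = 0.271), with replicate 3 below all injured control libraries.

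**Figure D4:**
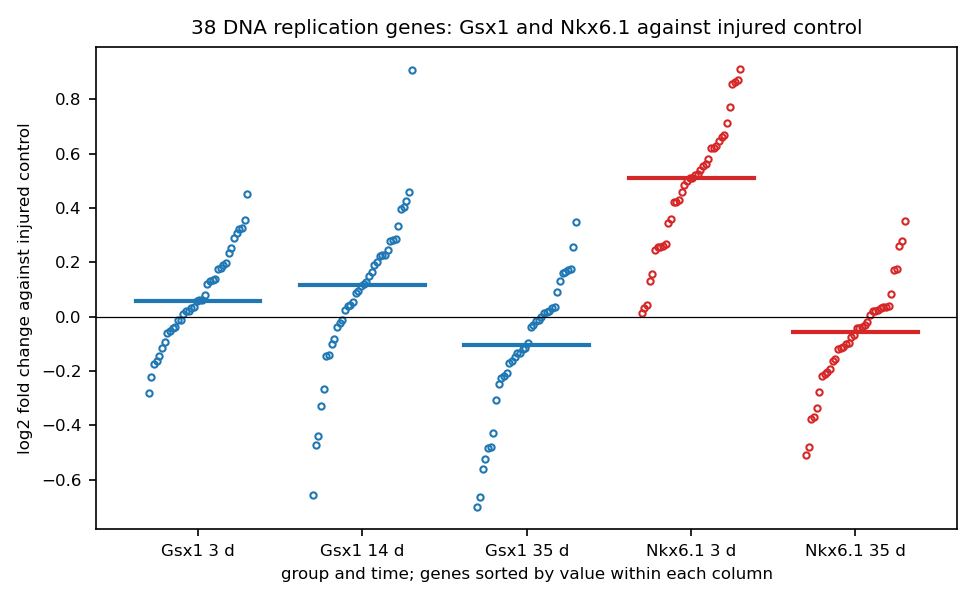
Log2 fold change against injured control (y) of each of the 38 genes (circles, sorted within a column, with the median as a bar) for Gsx1 at 3, 14 and 35 days and Nkx6.1 at 3 and 35 days (x). All 38 values for Nkx6.1 at 3 days lie above 0, with a median of 0.51, and 0 of the 190 values passed the threshold.

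The Nkx6.1 libraries at 3 days were uneven. The sums over the 38 genes were 1175, 1338 and 679 CPM. Replicate 3 was the lowest of its group for 36 of the 38 genes and lay within the range of the injured control for 20. Replicates 1 and 2 were both above all injured control libraries for 32. For these counts, too, the numbers over all genes are not given here. The same split was seen in the mitosis sum (1083, 1190 and 454 CPM), in the macrophage sum (12435, 10627 and 5905 CPM) and in the neuronal sum (2363, 2551 and 5272 CPM), where replicate 3 was the highest. The part of these markers in the replication gene levels was not tested. Without replicate 3 of the Nkx6.1 group, 14 of the 38 were called higher than the injured control. The share of all genes called in that fit is not given here, so this count is not read as particular to the 38.

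At 35 days the difference was not seen. Against the injured control 0 of the 38 were called (0% of all genes) and 0 had an unadjusted p under 0.05, DESeq2 called 0, and the median log2 fold change was -0.06 (range -0.51 to 0.35). Against sham 4 were called higher (6.33% of all genes called higher), Mcm3, Uhrf1, Cdt1 and Rrm2, a count that became 0 when any 1 of the sham libraries at 35 days or replicate 3 of the Nkx6.1 group was left out. From 3 to 35 days 33 of the 38 fell (21.4% of all genes called lower), with a median log2 fold change of -1.45. Whether the fall from 3 to 35 days was steeper than in the injured control was tested as an interaction. For Nkx6.1, 0 of the 38 were called (2.27% of all genes called in either direction), 36 estimates were negative, 11 had an unadjusted p under 0.05, and the smallest adjusted p was 0.0897 in Mcm2 (log2 -1.04 ± 0.36, SE). Without replicate 3 of the Nkx6.1 group at 3 days 9 were called, and without replicate 3 at 35 days 5 were called. The shares of all genes in these fits, and at an unadjusted p under 0.05, are not given here. For Gsx1, 0 were called (0% of all genes), 0 had an unadjusted p under 0.05 and the median was -0.24. DESeq2 called 0 in both interactions.

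Of the 31 members with a RefSeq promoter entry, 13 (41.9%) held 1 of the E2F motifs, against 704 of 27025 genes with an entry (2.60%), 11 of 37 other machinery genes (29.7%) and 1 of 22 mitosis genes (4.55%). The CHR element, with the letters TTTGAA, through which mitosis genes are known to be repressed in resting cells, was in 4 members (12.9%), in 15 mitosis genes (68.2%) and in 20.2% of all genes. The GC box, GGGCGG, was in 77.4% of members, 81.8% of mitosis genes and 38.2% of all genes. CCAAT was in 58.1%, 77.3% and 41.1%. Both strands were searched for each motif. E2F matches were also found in members that were not called at 3 days, Rfc3 and Gins3. No entry was matched for Pole, Ccne2, Gins4, Mcm4, Gins1, Rfc2 and Gins2.

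**Figure D5:**
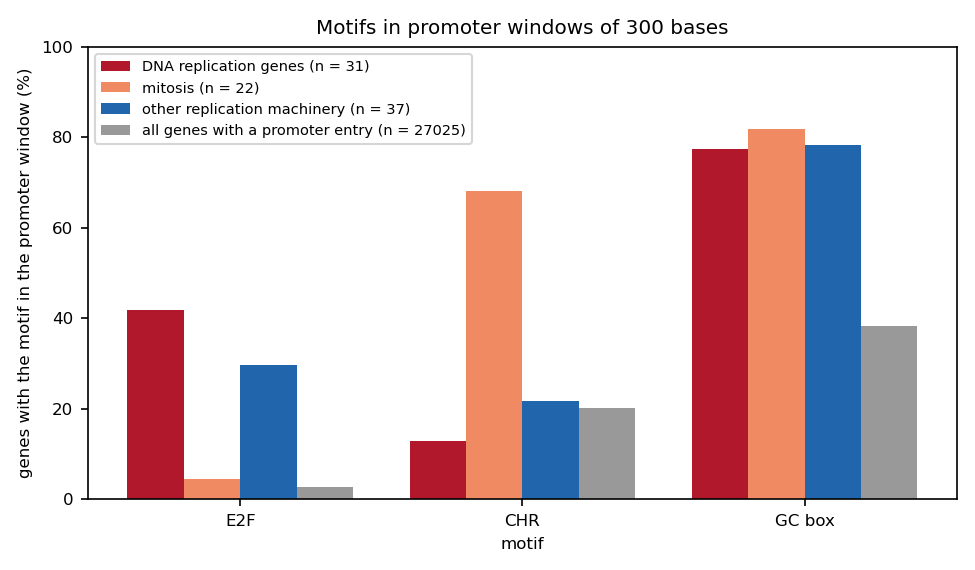
Percent of genes (y, from 0) whose RefSeq promoter window of 300 bases holds a motif (x), for the DNA replication genes, other replication machinery, mitosis genes and all genes with an entry (bars). The E2F bar is high for the replication genes (41.9%) and the CHR bar for the mitosis genes (68.2%).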

How the data were processed

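Total RNA of 32 spinal cord libraries was sequenced in pairs of reads, per the labels, and the authors deposited 1 table of whole-number counts per gene. The submitters' processing notes list HISAT2, SAMtools, HTSeq and DESeq2 and the build mm10 (GRCm38), with neither version nor role. Annotation and strand setting: not given in the sources used here. Libraries were grouped by their labels, and all 32 columns matched a sample.

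From the deposited counts, genes were kept by edgeR's filterByExpr (minimum count 10, minimum total 15), which left 16314 of 23420, 2504 being at 0 throughout. TMM factors and the quasi-likelihood F test of edgeR 4.0.16 (limma 3.58.1, R 4.3.3) were fitted over all 10 groups (22 residual degrees of freedom), with 21 comparisons and Benjamini-Hochberg adjustment over all genes tested. At 14 days the reference was the mean of both sham groups. Printed CPM are counts scaled to a common TMM-adjusted library total. Totals of 10.8 to 19.5 M counts limit what low genes can show. On simulated data for the 3-day comparison with 16314 genes, 13 of 50 genes changed 1.5-fold were recovered, 24 of 50 at 2-fold, 39 of 50 at 4-fold and 43 of 50 at 8-fold. No other gene was changed there, while 35.5% of all genes were called in either direction in the data. The adjustment was thus stricter in the simulation, and these numbers do not give the sensitivity in the data.

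Values in every library are given for the members with the smallest p at 3 days, 2 per role group of 4 or more and 1 per smaller one. Members not called at 3 days, or called at 35 days, are named too, as are up to 4 genes of each other list. The members and lists were chosen with earlier results of these data known. Alternatives were RLE size factors, no filter, DESeq2 1.42.0, a replicate block, fits of the compared groups alone and leaving out each library. Leaving out 2 libraries with Xist and Ddx3y reads, Xist as a covariate, and shares of the rise left with each library left out were added after seeing the data. Promoters are from RefSeq (GRCm38.p6), with 31 of 38 members matched by symbol. Exon lengths are the joined exons of all transcripts of a gene in the GENCODE annotation of GRCm38, and no genome was read by coordinates.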

Additional observations from a re-analysis of the deposited data

Results flagged for a closer look

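Within the groups of 4 libraries at 35 days, 76 pairs of a gene and a group were looked at for 1 library far from the other 3, and chance alone flags about 1 in 20. Orc6 was lowest in replicate 3 of the injured control, at 13.0 CPM, with the nearest library at 14.9 CPM. Cdt1 was lowest in replicate 2 of the injured control, at 4.45 CPM, with the nearest at 5.57 CPM. Mcm2 was lowest in replicate 2 of the Gsx1 group, at 7.72 CPM, with the nearest at 10.2 CPM. In replicate 1 of the Gsx1 group Mcm5 was highest, at 7.06 CPM with the nearest library at 5.49 CPM, and so was Rrm2, at 10.9 CPM with the nearest at 4.18 CPM.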

How the results depend on the processing

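The 32 members called higher at 3 days were 26 to 32 when 1 library was left out, and 32 with RLE size factors, without the filter, with the replicate block and with DESeq2. Left-out libraries moved the other counts as follows: 4 to 10 (reported 7) higher at 35 days, 4 to 11 (10) at 14 days, 8 to 20 (19) lower at 14 than at 3 days, 19 to 24 (23) lower at 35 than at 3 days. For Gsx1 they gave 25 to 35 (34) and 0 to 2 (2) higher than sham at 3 and 35 days, and 4 to 23 (21) lower at 14 than at 3 days. For Nkx6.1 they gave 35 to 36 (36) and 0 to 5 (4) higher than sham at 3 and 35 days, 28 to 35 (33) lower at 35 than at 3 days, 0 to 14 (0) against injured control at 3 days and 0 to 9 (0) in the interaction with time. The other comparisons with 0 calls had 0 under all alternatives run. Leaving out a library also removes degrees of freedom, and the shares of all genes called in these fits are not given. Whether replicate numbers pair the samples is not given. Of 136 same-numbered pairs of libraries from different groups, 54 correlated above 0.1. The median correlation was 0.03 for the same number and -0.04 for different numbers, and a shared batch was not tested. With the replicate block the number of members higher than sham at 35 days with Gsx1 was 1 (reported 2). With only the compared groups fitted, that with Nkx6.1 was 2 (reported 4). The cause was not tested. Of 93 member calls of the injury and time comparisons, 0 were lost with DESeq2 or RLE, 2 with the block, 2 without the filter, 9 with only the compared groups, 6 each with the Xist covariate and without the libraries of mixed sex, and 100 of 620 over all left-out libraries. No direction reversed. Genes below 1 CPM in sham, such as Cdc6, rest on few counts.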

Other observations

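Markers of T and NK cells and of fibroblasts had another course than the replication genes. Of 7 T and NK cell markers tested, 0 were called higher than sham at 3 days (edgeR, 0 also at an unadjusted p under 0.05), 6 at 14 days and 7 at 35 days in the injured control. Of 8 fibroblast markers 8, 7 and 7 were called higher at these times.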
